A study of Mus musculus with 10 samples.

Results

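Bulk RNA profiles of sorted thymic epithelial cells (TEC) of mice carrying the Foxn1 del AR3 mutation (AR3_mut, 3 libraries) were compared with those of nu/nu mice (nude, 4 libraries). These are 7 of the 10 libraries of the series, taken by their labels, and the other 3 come from the heterozygous control of the mutation (AR3_Het), used here to place the levels of both mutants. AR3_mut mice were labelled C57BL/6 and 4.5 weeks of age, nude mice ICR and 5 weeks, and AR3_Het mice C57BL/6 and 4.5 weeks. Strain and age therefore cannot be told apart from genotype in AR3_mut against nude. Nothing in the labels says that each library is another animal. The p-values therefore describe the spread among libraries, which may be technical, and no sort marker is named in the labels.

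TEC form the stroma in which T cells develop. Cortical TEC attract progenitors and commit them to the T lineage, and medullary TEC display self-antigens to maturing T cells. Foxn1, a forkhead transcription factor, switches on much of the cortical and part of the medullary programme, and the nu allele abolishes its function, leaving an epithelial rudiment without T cell development. The nude libraries are thus a background without working Foxn1 protein.

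The libraries held 1056066 to 2667973 counts in AR3_mut, 1901282 to 3302161 in nude and 2948283 to 4175851 in AR3_Het. Levels are given as CPM, counts scaled to a common library size with TMM factors, and a log2 difference is AR3_mut minus nude unless another pair is named. Replicates were distinct libraries, since every pair within a group gave a chi-square of at least 4.01 per degree of freedom. The first principal component carried 68.3% of the variance and separated AR3_Het from the other 2 groups, and the second carried 12.7%, with the AR3_mut libraries between 44.5 and 63.7 and the nude libraries between -56.7 and -16.3. The 10 most abundant genes held 5.41% to 5.54% of counts in AR3_mut, against 16.7% in nude 1, where the first of them alone held 4.08%.

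Foxn1 itself was at a trace level in both mutants. Its level was 1.56, 1.16 and 1.99 CPM in AR3_mut, from 4, 2 and 2 counts, against 1.45, 1.24, 0.553 and 0.819 CPM in nude, from 4, 3, 1 and 2 counts. AR3_Het held 382, 317 and 367 CPM. The AR3_mut and nude libraries overlapped, and the log2 difference of 0.51 (SE 0.41) was not called by edgeR's quasi-likelihood test with Benjamini-Hochberg adjustment (adjusted p = 0.685). At so few counts a difference between the mutants was not detectable at this depth.

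Of 12912 genes tested, 1458 (11.3%) were called at an adjusted p under 0.05, 979 higher in AR3_mut (7.58%) and 479 lower (3.71%). Of these, 1138 differed by 2-fold or more, 819 higher and 319 lower. In 2674 genes (20.7%) the AR3_mut and nude libraries did not overlap, and 1350 of the called genes were among them. An adjusted p under 0.05 was given for 1970 genes by the authors' deposited table, and 1438 genes were called in both, all with the same sign, which is 98.6% of the genes called here and 73.0% of the authors' genes. The calls lay unevenly over gene lists. Pan-endothelial genes were called higher in 19 of 22 tested members, cortical TEC genes in 9 of 18 and immediate-early genes in 1 of 28.

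**Figure D1:**
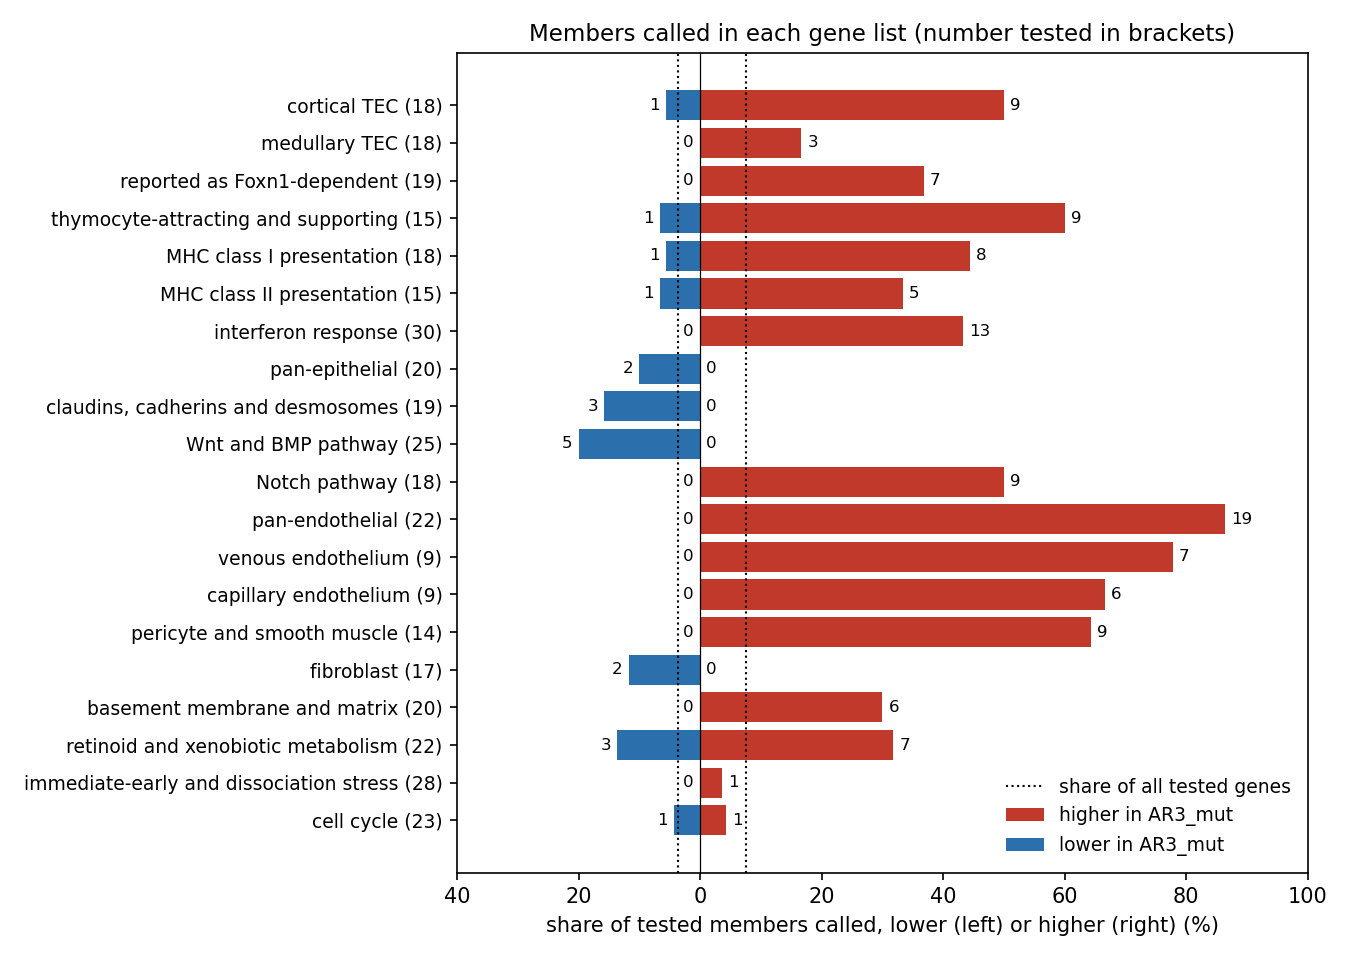
Share of the tested members of 20 gene lists called lower (blue, left) or higher (red, right) in AR3_mut than in nude, in percent, with the number called beside each bar and the number tested in brackets. Dotted lines mark the shares over all tested genes, 7.58% higher and 3.71% lower. The longest bars are those of the endothelial lists, with 19 of 22 pan-endothelial members higher.

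Cortical TEC genes were higher in AR3_mut than in nude in 9 of 18 tested members and lower in 1, with a median log2 difference of 1.20 where the median over all tested genes was 0. Their levels stayed far under those of AR3_Het: the list took 0.156% to 0.189% of counts in AR3_mut, 0.136% to 0.168% in nude and 2.80% to 3.33% in AR3_Het. The 9 called higher were Tbata, Ccl25, Cd83, Cxcl12, Dll4, Prss16, Il7, Enpep and Slco3a1, and Bmp4, a morphogen, was called lower. The genes reported as Foxn1-dependent, many of them also in the cortical list, were called higher in 7 of 19 and lower in 0. With only the 7 AR3_mut and nude libraries fitted, 11 of these genes were tested and 4 were higher. The summed share of the list was nonetheless not above nude, at 0.193% to 0.277% of counts in AR3_mut, 0.273% to 0.281% in nude and 3.01% to 3.57% in AR3_Het. That sum includes Krt8, an abundant general epithelial keratin with a log2 difference of -0.82 that was not called. It therefore does not weigh the members evenly.

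Tbata, a protein of the cortical thymic stroma, showed the largest called difference of the list. It reached 12.5, 6.95 and 6.97 CPM in AR3_mut, against 0.723, 0, 0.553 and 0.409 CPM in nude, and 6428, 5601 and 4653 CPM in AR3_Het. Each nude value lay under the level of 3 counts, 0.908 to 1.58 CPM of library totals in nude, so the size of the difference is uncertain. Every AR3_mut library lay above every nude library, and the log2 difference was 4.29 (SE 0.47, adjusted p = 0.000539). The log2 difference of AR3_mut minus AR3_Het was nonetheless -9.24.

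Ccl25, the chemokine that draws progenitors through its receptor Ccr9, was at 15.3, 11.6 and 6.97 CPM in AR3_mut, against 4.34, 2.06, 2.21 and 4.09 CPM in nude, and at 3678 to 4772 CPM in AR3_Het. The log2 difference was 1.84 (SE 0.33, adjusted p = 0.00541) and the groups did not overlap. Prss16, the thymus-specific serine protease, averaged 9.96 ± 2.60 CPM in AR3_mut and 3.25 ± 2.34 CPM in nude (SD, n = 3 and 4), a log2 difference of 1.69 (SE 0.48, adjusted p = 0.0425). Its AR3_Het mean was 7073 CPM. Cd83, which stabilises MHC class II on the TEC surface, was at 15.6, 5.79 and 2.99 CPM in AR3_mut, against 0, 1.24, 1.66 and 0.409 CPM in nude, a log2 difference of 3.52 (SE 0.67, adjusted p = 0.00757). Il7, the cytokine on which early thymocytes depend, averaged 4.63 ± 2.51 CPM in AR3_mut and 0.524 ± 0.148 CPM in nude, with 41.3 CPM in AR3_Het, and the log2 difference was 2.95 (SE 0.76, adjusted p = 0.0294). In Cd83 and Il7 too, the lowest AR3_mut library lay above the highest nude library. Without AR3_mut 1, the highest library in Cd83, its log2 difference was 2.56 (adjusted p = 0.0486). The calls of Prss16 and Il7 were less firm: Prss16 was not called without any 1 library other than nude 3 or nude 4 (adjusted p between 0.0539 and 0.131), nor Il7 without AR3_mut 2, AR3_mut 3, nude 1, nude 2 or nude 4 (0.0639 to 0.123).

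Not every Foxn1-dependent gene was called above nude. Psmb11, the catalytic subunit of the thymoproteasome, had 1 count over the 3 AR3_mut libraries and 0 over the 4 nude libraries, against 2755 counts over AR3_Het. Ly75, an endocytic receptor of cortical TEC, had 0 counts in AR3_mut and 1 in nude. At so few counts the direction of neither Psmb11 nor Ly75 can be told. Pax1, a pharyngeal pouch transcription factor, averaged 71.6 ± 46.4 CPM in AR3_mut and 58.2 ± 9.41 CPM in nude (log2 difference 0.32, SE 0.33, adjusted p = 0.592).

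Some of the members called higher are also made by vessels. Dll4, the Notch ligand that commits progenitors to the T lineage and that arterial endothelium also makes, was at 133, 159 and 198 CPM in AR3_mut, against 31.8, 33.4, 74.7 and 88.0 CPM in nude, and at 119, 142 and 119 CPM in AR3_Het. Its log2 difference was 1.52 (SE 0.33, adjusted p = 0.0146), and without AR3_mut 3 the adjusted p was 0.0503. Cxcl12, the Cxcr4 ligand, was at 463, 504 and 457 CPM in AR3_mut, against 187, 97.7, 273 and 242 CPM in nude, with a log2 difference of 1.25 (SE 0.28, adjusted p = 0.0150). In both genes the groups did not overlap. The pan-endothelial genes were higher in the same libraries, at 1.03% to 1.19% of counts in AR3_mut and 0.284% to 0.456% in nude, and scaled to those counts Dll4 and Cxcl12 no longer passed (adjusted p = 0.764 and 0.482) while Tbata and Cd83 did. The scale lowered the log2 difference of Dll4 from 1.52 to 0.09 and of Tbata from 4.29 to 2.81, so larger differences outlast it more easily. The cells that made these transcripts were not tested. Ccl25 also no longer passed on that scale (adjusted p = 0.394), and the median of the cortical list turned to -0.25, beside -1.52 over all genes. Fewer cells of a type and less RNA per cell cannot be told apart in such bulk libraries. Leaving out single libraries gave 5 to 9 cortical members higher, with 5 without AR3_mut 3, and 6 without AR3_mut 1, without AR3_mut 2 or without nude 2. Some members reached the test only through their counts in AR3_Het: with only the 7 AR3_mut and nude libraries fitted, Foxn1, Psmb11, Cd83 and Il7 were not tested, and 5 of 13 cortical members were called higher and 0 lower. Enpep, an aminopeptidase of cortical TEC and vessels, lost its call without any 1 AR3_mut library or nude 2 (adjusted p between 0.0538 and 0.0820), Slco3a1, an organic anion transporter, without AR3_mut 1 (0.0694), and Bmp4 without any 1 library other than AR3_Het 2, AR3_Het 3 or nude 1 (0.0522 to 0.112).

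**Figure D2:**
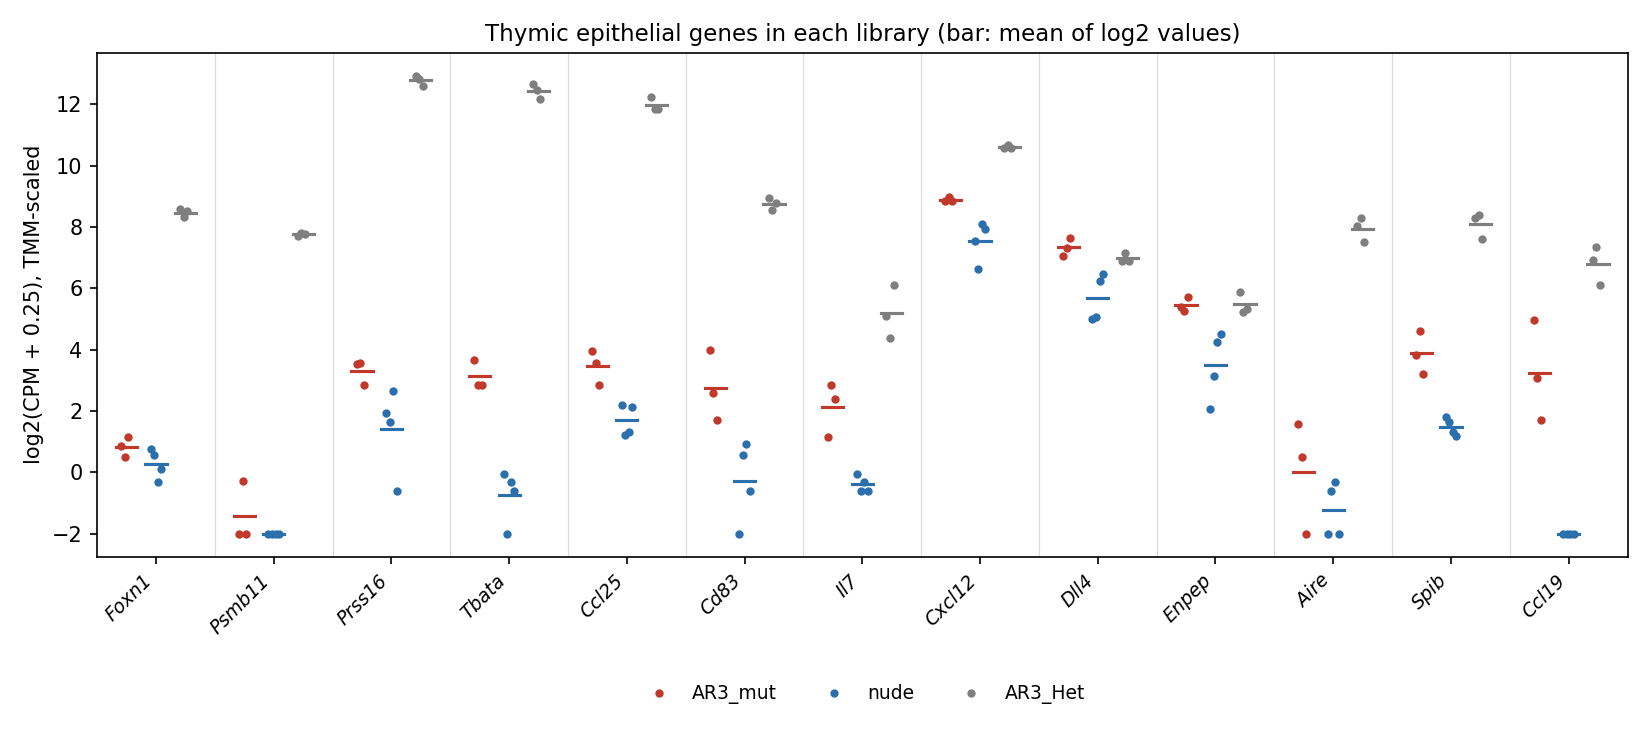
Levels of Foxn1 and TEC genes in each library, as log2(CPM + 0.25), for AR3_mut (red, 3 libraries), nude (blue, 4) and AR3_Het (grey, 3), with a bar at each group's mean. AR3_mut libraries lie above nude for Tbata, Ccl25 and Spib and far under AR3_Het, where Tbata reached 6428 CPM.

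The sequences just upstream of 4 cortical genes are shown because the core motif reported for Foxn1 binding, GACGC, was searched on both strands in the 250 bases before each RefSeq start (GRCm38.p6). Capitals mark each match. Tbata (chr10:61171714-61171963, plus strand) had none, Ccl25 (chr8:4324960-4325209, plus strand) had 1 that begins 56 bases before the start, Cxcl12 (chr6:117168285-117168534, plus strand) had 1 at 62 bases and Psmb11 (chr14:54625060-54625309, plus strand) had 2, at 239 and 62 bases. Not printed are a second RefSeq start of Ccl25 (chr8:4349338-4349587, plus strand) and the starts of Dll4, Foxn1, Spib and Ccl19, none of which held the motif.
Tbata: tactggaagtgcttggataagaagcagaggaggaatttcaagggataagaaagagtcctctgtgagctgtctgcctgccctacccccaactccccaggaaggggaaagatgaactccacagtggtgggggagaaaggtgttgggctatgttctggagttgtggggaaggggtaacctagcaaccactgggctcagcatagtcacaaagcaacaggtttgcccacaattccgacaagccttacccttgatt
Ccl25: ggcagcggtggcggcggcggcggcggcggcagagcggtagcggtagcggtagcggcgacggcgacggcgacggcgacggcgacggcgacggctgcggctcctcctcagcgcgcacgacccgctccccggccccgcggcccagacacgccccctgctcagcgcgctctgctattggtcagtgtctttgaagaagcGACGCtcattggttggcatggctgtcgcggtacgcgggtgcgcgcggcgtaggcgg
Cxcl12: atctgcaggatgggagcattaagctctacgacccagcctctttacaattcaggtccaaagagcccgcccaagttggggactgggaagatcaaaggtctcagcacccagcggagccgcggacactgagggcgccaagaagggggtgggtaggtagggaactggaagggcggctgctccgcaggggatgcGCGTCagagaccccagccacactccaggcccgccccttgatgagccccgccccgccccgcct
Psmb11: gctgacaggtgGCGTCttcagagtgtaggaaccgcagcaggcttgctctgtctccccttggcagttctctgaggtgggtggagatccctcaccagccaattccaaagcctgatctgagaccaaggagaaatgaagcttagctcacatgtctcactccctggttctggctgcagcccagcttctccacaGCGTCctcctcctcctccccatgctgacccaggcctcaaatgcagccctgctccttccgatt

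In Cxcl12 and Psmb11 the matches read GCGTC, on the opposite strand. Of 32851 promoters in the table, 22.6% held the motif, as did 7 of the 14 tested cortical genes with a promoter there. So did 8 of the 16 tested MHC class I presentation genes and 5 of the 13 tested genes reported as Foxn1-dependent. A gene was counted if any of its starts held the motif, while the 22.6% counts each promoter singly, so the units differ.

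Medullary TEC genes were called higher in 3 of 18 tested members, Spib, Ccl19 and Cdkn1c, and lower in 0, with a median log2 difference of 0.37. Over all tested genes 7.58% were called higher. Spib, an Ets-family factor of medullary TEC and of lymphoid and dendritic cells, was at 14.1, 24.3 and 8.96 CPM in AR3_mut, against 3.25, 2.89, 2.21 and 2.05 CPM in nude, a log2 difference of 2.60 (SE 0.38, adjusted p = 0.00205). AR3_Het held 193 to 336 CPM. Ccl19, a Ccr7 ligand that guides thymocytes to the medulla, had 79, 14 and 3 counts in AR3_mut, against 0 in every nude library, which makes it at least 57.1-fold higher over the group against a floor of 3 counts (adjusted p = 0.0103). Of its 96 counts 79 were in AR3_mut 1, and without that library the bound was 19.6-fold. Macrophage and dendritic cell genes were highest in the same library, at 0.335%, 0.0421% and 0.0317% of counts in AR3_mut. Most of that 0.335% was Lyz2, which airway epithelium also makes, and the airway and gland list was highest of AR3_mut there too. B cell genes were also highest there, at 0.117%, 0.0366% and 0.00881%, and the part of any of these cells in the Ccl19 level was not tested. Cdkn1c, a cell cycle inhibitor, averaged 69.0 ± 3.77 CPM in AR3_mut and 37.9 ± 11.9 CPM in nude (log2 difference 0.86, SE 0.24, adjusted p = 0.0406), and leaving out any 1 AR3_mut library, AR3_Het 1, AR3_Het 2, nude 1 or nude 2 put the adjusted p between 0.0571 and 0.0979. The transcription factors that drive self-antigen display stayed near 0: Aire had 9 counts in AR3_mut and 2 in nude (log2 ratio 3.01, 95% counting interval 0.73 to 6.26, adjusted p = 0.0959), and Fezf2 had 2 and 0 counts. Aire-dependent antigens were called higher in 2 of 20 tested members, but 12 of the 20 had 3 counts or fewer in each mutant. With only the 7 AR3_mut and nude libraries fitted, 3 of these antigens were tested and 1 was higher, and of the medullary list 1 of 10 was higher.

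Tuft cell and cornified TEC lists had 1 of 15 and 1 of 12 tested members higher, near the 7.58% of all tested genes. Of these, 7 tuft cell and 2 cornified members had 3 counts or fewer in each mutant. With only the 7 AR3_mut and nude libraries fitted, 5 and 4 members were tested and 1 of each list was higher. Ly6d, a surface protein of keratinising medullary TEC, was at 199, 28.4 and 23.9 CPM in AR3_mut, against 1.08, 0.412, 7.19 and 4.50 CPM in nude (log2 difference 4.79, SE 0.93, adjusted p = 0.0103), and without AR3_mut 1 or nude 3 the difference was 3.08 or 5.43. Ltc4s, leukotriene C4 synthase, averaged 31.8 ± 25.1 CPM in AR3_mut and 5.28 ± 4.76 CPM in nude (log2 difference 2.69, SE 0.62, adjusted p = 0.0188), and without AR3_mut 2, nude 1 or nude 2 its adjusted p was 0.0907, 0.0593 or 0.0536. Its difference was 1.78 without AR3_mut 2 and 3.40 without nude 3. Gng13, a G protein subunit of taste and tuft cells, went the other way, at 30.5, 73.5 and 59.7 CPM in AR3_mut, against 384, 611, 159 and 428 CPM in nude (log2 difference -2.87, SE 0.47, adjusted p = 0.00358). The groups did not overlap for Gng13, and AR3_Het, at 166 to 332 CPM, overlapped nude.

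General epithelial genes were, by contrast, called lower in 2 of 20 tested members and higher in 0, with a median log2 difference of -0.53. Over all tested genes 3.71% were called lower. Epcam, the adhesion molecule used to mark TEC, was at 210, 67.1 and 175 CPM in AR3_mut, against 334, 249, 519 and 390 CPM in nude (log2 difference -1.30, SE 0.38, adjusted p = 0.0461). Grhl1, an epithelial transcription factor, averaged 26.7 ± 7.46 CPM in AR3_mut and 50.3 ± 4.83 CPM in nude (log2 difference -0.90, SE 0.25, adjusted p = 0.0402). For both genes the highest AR3_mut library lay under the lowest nude library. Epcam lost its call without any 1 library other than AR3_mut 1 and nude 2 (adjusted p between 0.0527 and 0.0845), and Grhl1 without AR3_mut 2, AR3_mut 3, AR3_Het 1, nude 1, nude 2 or nude 4 (0.0572 to 0.114). Krt8 and Krt18, the simple-epithelial keratins, averaged 861 ± 500 and 1814 ± 661 CPM in AR3_mut, against 1515 ± 198 and 2814 ± 529 CPM in nude, and neither was called (adjusted p = 0.144 and 0.161). Without AR3_mut 3, its highest AR3_mut library, Krt8 was called lower (adjusted p = 0.0182).

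Epithelial adhesion and signalling genes held more calls lower than higher. Of claudins, cadherins and desmosome genes 3 of 19 were called lower and 0 higher. Cldn10, a channel-forming claudin, averaged 66.3 ± 14.4 CPM in AR3_mut and 166 ± 33.3 CPM in nude (log2 difference -1.33, SE 0.26, adjusted p = 0.00812), and the other two were Cgn, a tight junction scaffold (-0.91), and Pkp2, a desmosomal plakophilin (-1.35). Of Wnt and BMP pathway genes 5 of 25 were called lower and 0 higher, namely Sfrp1, Id2, Lrp6, Bmpr1a and Bmp4. Sfrp1, a secreted Wnt antagonist, was at 32.8, 21.4 and 65.7 CPM in AR3_mut, against 184, 146, 202 and 101 CPM in nude (log2 difference -2.02, SE 0.36, adjusted p = 0.00541), with no overlap. Id2, a BMP-induced inhibitor of helix-loop-helix factors, averaged 266 ± 47.2 CPM in AR3_mut and 464 ± 45.3 CPM in nude (log2 difference -0.80, SE 0.17, adjusted p = 0.0123). Scaled to pan-epithelial counts, the medians of these lists turned to 0.27 and 0.42, beside 0.77 over all genes, and Cldn10 and Id2 no longer passed (adjusted p = 0.316 and 0.875) while Sfrp1 did. Without AR3_mut 1, 2 Wnt and BMP members were lower, and the adjusted p was 0.0566 for Lrp6, a Wnt co-receptor, and 0.0743 for Bmpr1a, a BMP receptor. Bmpr1a also lost its call without AR3_mut 3 or nude 1 (0.0577 and 0.0533), and Pkp2 without AR3_mut 2, AR3_mut 3 or nude 1 (0.0836, 0.0857 and 0.0738).

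Beside 7.58% of all tested genes called higher, basal epithelial genes were called higher in 2 of 15 and lower in 0. These were Itgb4 and Lama3, parts of the hemidesmosome that anchors basal cells (log2 difference 0.92, SE 0.23, adjusted p = 0.0241, and 0.67, SE 0.19, adjusted p = 0.0450). Without AR3_mut 1, without AR3_mut 3 or without nude 2, 0 members passed by edgeR, with adjusted p for Itgb4 of 0.0924, 0.0878 and 0.0658. Lama3 lost its call without any 1 library other than AR3_mut 2 (0.0664 to 0.218).

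Factors that attract and support thymocytes were called higher in 9 of 15 tested members and lower in 1, with a median log2 difference of 1.52. With only the 7 AR3_mut and nude libraries fitted, Il7 and Ccl19 were not tested, and 6 of 10 members were higher and 0 lower. Beside Ccl25, Ccl19, Cxcl12, Il7 and Dll4 these were Vcam1, Dll1, Il15 and Icam1. Vcam1, an adhesion molecule of cortical stroma and of inflamed vessels, was at 97.8, 116 and 52.7 CPM in AR3_mut, against 32.2, 23.1, 22.7 and 22.5 CPM in nude (log2 difference 1.83, SE 0.27, adjusted p = 0.00239). Il15, a cytokine for natural killer and memory T cells, averaged 34.0 ± 11.3 CPM in AR3_mut and 11.2 ± 5.42 CPM in nude (log2 difference 1.55, SE 0.36, adjusted p = 0.0185), and AR3_Het averaged 32.9 CPM. The groups did not overlap in either gene. Without AR3_mut 3, 5 members of the list were higher, with an adjusted p of 0.0675 for Il15. Icam1, a leukocyte adhesion molecule, lost its call without any 1 of 7 libraries (adjusted p between 0.0584 and 0.0815), those other than AR3_Het 3, nude 3 and nude 4, and Dll1 without AR3_mut 1 (0.0768). Scaled to pan-endothelial counts 1 member was higher and 3 of 15 lower, with a list median of 0.0058, where 9805 of all 12912 genes were lower and their median was -1.52.

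Notch pathway genes were called higher in 9 of 18 tested members and lower in 0, with a median log2 difference of 1.07. They spanned ligands (Dll1, Dll4, Jag2), receptors (Notch1, Notch3), the glycosyltransferase Mfng that tunes ligand choice, and the targets Hey1, Heyl and Nrarp. Hey1 was at 257, 232 and 271 CPM in AR3_mut, against 67.2, 55.3, 124 and 105 CPM in nude (log2 difference 1.53, SE 0.25, adjusted p = 0.00368). Notch3, the receptor of pericytes and smooth muscle, was at 463, 568 and 592 CPM in AR3_mut, against 78.0, 95.7, 249 and 214 CPM in nude (log2 difference 1.77, SE 0.37, adjusted p = 0.0114). Both rose without overlap, and AR3_Het held 112 to 149 CPM of Hey1 and 36.9 to 60.3 CPM of Notch3. Scaled to pan-endothelial counts 0 members were higher and 8 of 18 lower, with a list median of -0.42, where 9805 of all 12912 genes were lower and their median was -1.52. Heyl lost its call without AR3_mut 1, AR3_mut 3, nude 1 or nude 2 (adjusted p between 0.0631 and 0.0765).

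MHC class I genes were called higher in 8 of 18 tested members and lower in 1, with a median log2 difference of 0.80. The members spanned the chains (H2-K1, H2-T23, B2m), the peptide transporter (Tap1, Tap2), the immunoproteasome (Psmb8, Psmb9) and Nlrc5, the transactivator of the class. Nlrc5 was at 23.5, 24.9 and 20.9 CPM in AR3_mut, against 2.89, 1.65, 1.66 and 6.55 CPM in nude (log2 difference 2.82, SE 0.39, adjusted p = 0.00170). Tap1 was at 194, 177 and 249 CPM in AR3_mut, against 59.6, 57.7, 56.4 and 83.9 CPM in nude (log2 difference 1.68, SE 0.19, adjusted p = 0.000570). Psmb8 averaged 428 ± 26.4 CPM in AR3_mut and 179 ± 16.3 CPM in nude (log2 difference 1.26, SE 0.15, adjusted p = 0.000721), and AR3_Het, at 431 CPM, overlapped AR3_mut. B2m, the light chain, averaged 3081 ± 864 CPM in AR3_mut and 973 ± 322 CPM in nude (log2 difference 1.66, SE 0.26, adjusted p = 0.00298). None of these 4 genes overlapped between the groups, and without nude 4 the difference of Nlrc5 was 3.42. H2-K1 had a log2 difference of 1.91, but its reads may be shared with the near-identical H2-D1 and these chains differ between strains, so it is uncertain. Calr, a chaperone of class I assembly, was lower (-0.75, SE 0.16, adjusted p = 0.0123). H2-T23, a nonclassical chain, lost its call without AR3_mut 1, AR3_mut 3, AR3_Het 1 or nude 1 (adjusted p between 0.0516 and 0.0890). The median of the list turned to -0.75 when scaled to pan-endothelial counts, beside -1.52 over all genes, and Nlrc5 remained called higher on that scale.

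MHC class II genes were called higher in 5 of 15 tested members and lower in 1, with a median log2 difference of 1.56. With only the 7 AR3_mut and nude libraries fitted, 3 of 10 members were higher and 1 lower. H2-DMb1, which helps load peptides, was at 60.2, 22.6 and 29.9 CPM in AR3_mut, against 5.06, 8.66, 6.08 and 4.91 CPM in nude (log2 difference 2.63, SE 0.34, adjusted p = 0.00112). H2-Aa, a class II chain, was at 455, 105 and 223 CPM in AR3_mut, against 54.2, 56.5, 58.6 and 111 CPM in nude, with overlap (log2 difference 1.90, SE 0.43, adjusted p = 0.0164), and AR3_Het held 5277 CPM or more. Cd74, the invariant chain, and Ctss, the protease that trims it, were the others beside Cd83, with log2 differences of 1.43 and 3.47. Ifi30, the lysosomal thiol reductase, was at 72.7, 52.7 and 63.7 CPM in AR3_mut, against 197, 176, 129 and 185 CPM in nude, and was the 1 member lower (log2 difference -1.45, SE 0.21, adjusted p = 0.00216). AR3_mut 1 held the highest level of H2-DMb1, H2-Aa, Cd83 and Ctss, and without it 2 members were higher, with adjusted p = 0.0760 for H2-Aa, 0.0554 for Ctss and 0.153 for Cd74. The log2 differences were then 1.21 for H2-Aa and 2.80 for Ctss, and without nude 4 that of Ctss was 4.40. H2-Aa also lost its call without nude 1 (0.0513), and Cd74 without AR3_mut 3, AR3_Het 1, AR3_Het 2, nude 1 or nude 2 (0.0528 to 0.0882). The macrophage and dendritic cell genes took 0.335%, 0.0421% and 0.0317% of counts in AR3_mut and 0.0119% to 0.0260% in nude. Most of the 0.335%, in AR3_mut 1, was Lyz2, which airway epithelium also makes. The part of macrophages and dendritic cells in the class II difference was not tested.

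Interferon-response genes were called higher in 13 of 30 tested members and lower in 0, with a median log2 difference of 0.92. Cxcl9, a chemokine induced by interferon gamma, was at 25.4, 24.9 and 22.9 CPM in AR3_mut, against 2.17, 1.65, 0.553 and 3.28 CPM in nude (log2 difference 3.60, SE 0.37, adjusted p = 0.000350), and AR3_Het lay between, at 9.40 to 10.8 CPM. Cxcl10, its relative, was at 437, 327 and 512 CPM in AR3_mut, against 119, 116, 74.7 and 155 CPM in nude (log2 difference 1.87, SE 0.25, adjusted p = 0.00130). Mx2, an antiviral GTPase, averaged 54.7 ± 7.11 CPM in AR3_mut and 16.1 ± 1.21 CPM in nude (log2 difference 1.77, SE 0.21, adjusted p = 0.000721), and AR3_Het overlapped nude. Igtp, an interferon-induced GTPase, averaged 116 ± 15.1 CPM in AR3_mut and 52.6 ± 6.50 CPM in nude (log2 difference 1.14, SE 0.15, adjusted p = 0.00145). None of the 4 overlapped between AR3_mut and nude. Without nude 1, 8 members were higher, and scaled to pan-endothelial counts 1 was higher and 11 of 30 lower, with a list median of -0.61, where 9805 of all 12912 genes were lower and their median was -1.52.

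Upstream sequences of B2m, of the class I list, and of Cxcl10 and Igtp are shown as examples that hold the core of the interferon-stimulated response element, a pair of GAAA runs with any 2 bases between them, searched on both strands in the same windows, with capitals marking each match. B2m (chr2:122147437-122147686, plus strand) held it 139 bases before the start, Cxcl10 (chr5:92348890-92349139, minus strand) at 213 bases and Igtp (chr11:58199306-58199555, plus strand) at 34 bases.
B2m: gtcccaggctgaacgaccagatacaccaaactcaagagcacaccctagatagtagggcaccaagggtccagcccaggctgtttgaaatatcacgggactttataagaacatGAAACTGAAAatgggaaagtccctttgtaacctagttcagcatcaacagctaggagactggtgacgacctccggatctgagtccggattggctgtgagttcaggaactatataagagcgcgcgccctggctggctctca
Cxcl10: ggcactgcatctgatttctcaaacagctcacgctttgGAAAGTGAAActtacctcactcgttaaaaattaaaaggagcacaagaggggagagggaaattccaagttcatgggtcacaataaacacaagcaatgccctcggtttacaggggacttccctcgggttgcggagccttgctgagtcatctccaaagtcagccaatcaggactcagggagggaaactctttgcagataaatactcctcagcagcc
Igtp: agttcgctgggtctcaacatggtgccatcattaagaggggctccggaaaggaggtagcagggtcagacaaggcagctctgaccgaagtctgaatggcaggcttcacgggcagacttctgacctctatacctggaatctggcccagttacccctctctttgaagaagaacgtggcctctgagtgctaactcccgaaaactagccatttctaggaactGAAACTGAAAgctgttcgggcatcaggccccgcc

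The windows of Cxcl9, Tap1, Psmb8, Psmb9 and H2-K1 held no match, and that of H2-T23 held 1. Among all promoters 2.98% held this motif, against 2 of the 16 tested class I genes with a promoter in the table, and 12 of the 20 tested interferon genes with a promoter in the table and 5 of the 7 of these that were called higher. Genes were again counted if any of their starts held it.

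**Figure D3:**
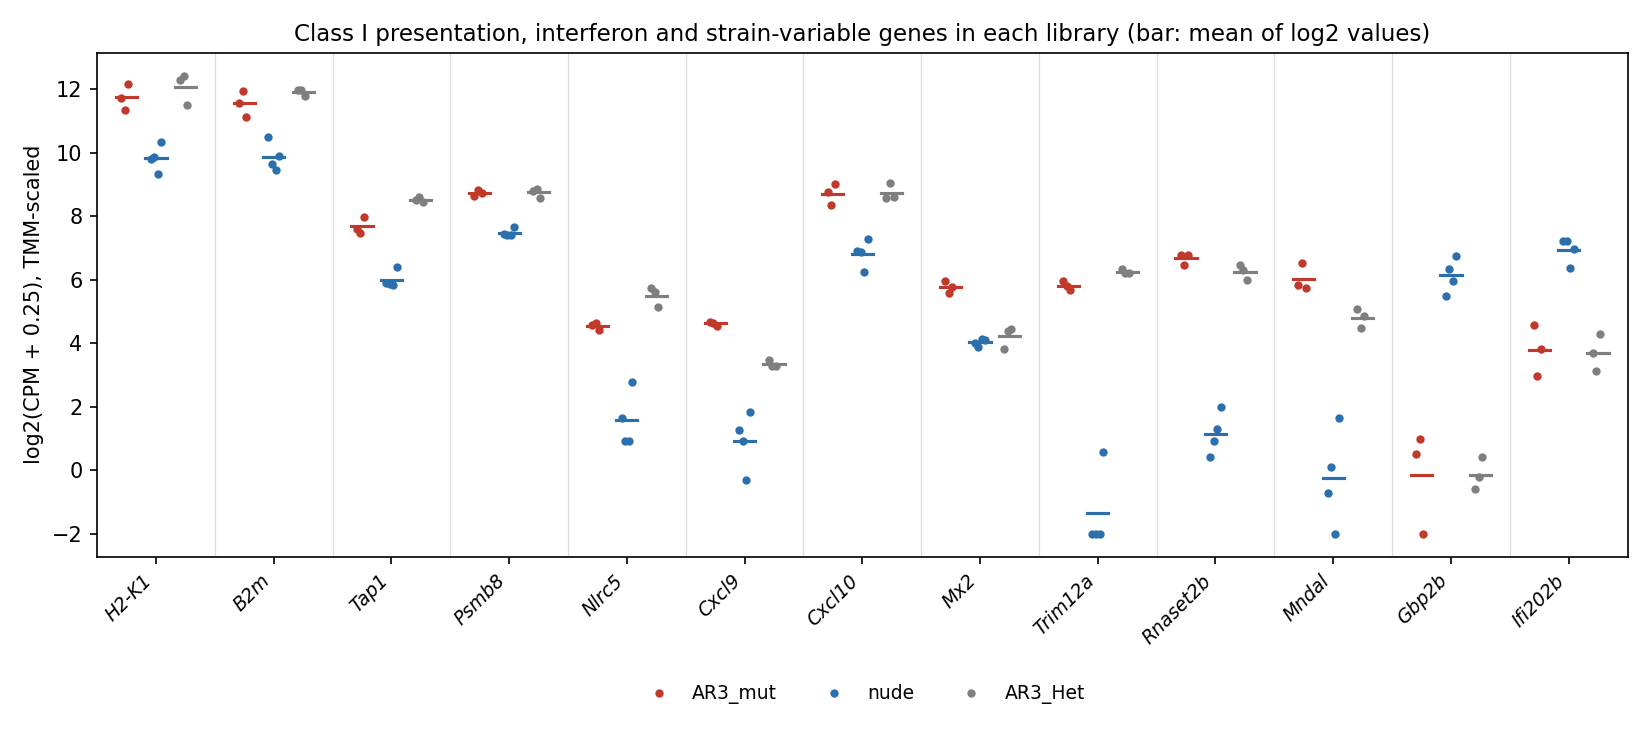
Levels of MHC, interferon-response and strain-variable genes in each library, as log2(CPM + 0.25), for AR3_mut (red), nude (blue) and AR3_Het (grey), with a bar at each group's mean. AR3_mut lies above nude for Nlrc5, Tap1 and Cxcl10, and nude above AR3_mut for Ifi202b.

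Endothelial genes were the list with the most calls. Of pan-endothelial genes 19 of 22 were called higher and 0 lower, with a median log2 difference of 1.88, and venous (7 of 9), capillary (6 of 9) and arterial (4 of 9) genes likewise had 0 lower. Lymphatic genes were higher in 3 of 4 and lower in 0 by edgeR, with 1 lower by DESeq2, and took 0.0237% to 0.0623% of counts in AR3_mut and 0.0192% to 0.0495% in nude. Mmrn1, a multimerin of lymphatic endothelium that did not reach the test, had 0 counts in AR3_mut and 32 in nude, at least 5.97-fold lower. Prox1, the other member below the filter, went the other way, with 21 counts in AR3_mut and 3 in nude (log2 ratio 3.64, 95% counting interval 1.90 to 6.03). Plvap, which forms the diaphragms of fenestrated vessels, was at 1296, 1245 and 1514 CPM in AR3_mut, against 297, 213, 422 and 377 CPM in nude (log2 difference 2.05, SE 0.22, adjusted p = 0.000539). Vwf, the clotting factor stored in endothelium, was at 298, 291 and 487 CPM in AR3_mut, against 66.8, 60.2, 69.7 and 70.4 CPM in nude (log2 difference 2.42, SE 0.21, adjusted p = 0.000118). Selp, the venous selectin through which progenitors enter the thymus, averaged 498 ± 74.1 CPM in AR3_mut and 132 ± 24.3 CPM in nude (log2 difference 1.91, SE 0.19, adjusted p = 0.000293). The groups did not overlap for these 3 genes, and in AR3_Het the endothelial genes took only 0.0421% to 0.0534% of counts.

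The endothelial difference was not uniform. Kdr, the main VEGF receptor, averaged 106 ± 46.5 CPM in AR3_mut and 101 ± 15.6 CPM in nude (log2 difference 0.08, SE 0.38, adjusted p = 0.940), and Cd34 averaged 515 ± 114 CPM in AR3_mut and 792 ± 274 CPM in nude (adjusted p = 0.213). Flt1, another VEGF receptor, was the third member not called (adjusted p = 0.0660). Without AR3_mut 3 or nude 3 Flt1 was called higher (0.0318 and 0.0267), and without nude 3 Cd34 was called lower (0.0448). Above the others, Lyve1, the hyaluronan receptor of lymphatic and sinusoidal endothelium, was at 156, 342 and 84.6 CPM in AR3_mut, against 2.53, 10.3, 7.74 and 5.73 CPM in nude (log2 difference 4.91, SE 0.51, adjusted p = 0.000437). Without AR3_mut 2 its log2 difference was 4.20. Stab2, a scavenger receptor, Marco, a scavenger receptor of macrophages, Clec4g, a lectin, and F8, coagulation factor VIII, were picked after their values were seen, and their log2 differences were 4.60, 5.22, 4.17 and 3.71. Stab2, Marco and F8 were highest in AR3_mut 2, without which the differences of Marco and F8 were 4.44 and 2.91. F8 was at 4.41 without nude 1 and Clec4g at 5.56 without nude 3. Scaled to pan-endothelial counts, Vwf, Aplnr and Lyve1 remained higher. Without AR3_mut 3 or nude 1, 3 capillary members were higher, and without nude 1 or nude 2, 4 venous members.

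Pericyte and smooth muscle genes were called higher in 9 of 14 tested members and lower in 0, with a median log2 difference of 1.73. Higd1b, a pericyte gene, averaged 85.2 ± 7.36 CPM in AR3_mut and 16.8 ± 7.18 CPM in nude (log2 difference 2.35, SE 0.30, adjusted p = 0.00108). Pdgfrb, the receptor that recruits pericytes to vessels, averaged 180 ± 34.8 CPM in AR3_mut and 50.5 ± 17.8 CPM in nude (log2 difference 1.83, SE 0.28, adjusted p = 0.00239). Neither gene overlapped between groups. Fibroblast genes were instead called lower in 2 of 17 and higher in 0, with a median log2 difference of -0.65, and took 0.426% to 0.743% of counts in AR3_mut and 0.586% to 1.56% in nude. These were Fbln1 and Fn1, both matrix proteins (-2.23 and -1.39), and leaving out AR3_mut 3 or nude 2 left 0 lower while leaving out nude 3 gave 6. Fbln1 lost its call without AR3_mut 1, AR3_mut 3 or nude 2 (adjusted p between 0.0524 and 0.0691), and Fn1 without any 1 library other than nude 1 and nude 3 (0.0529 to 0.123). Basement membrane genes were called higher in 6 of 20 and lower in 0, among them Col15a1, a collagen of vessel walls, at 131 ± 20.6 CPM in AR3_mut and 33.0 ± 6.11 CPM in nude (SE of the log2 difference 0.19, adjusted p = 0.000210), and without AR3_mut 3 or nude 1, 3 members were higher.

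**Figure D4:**
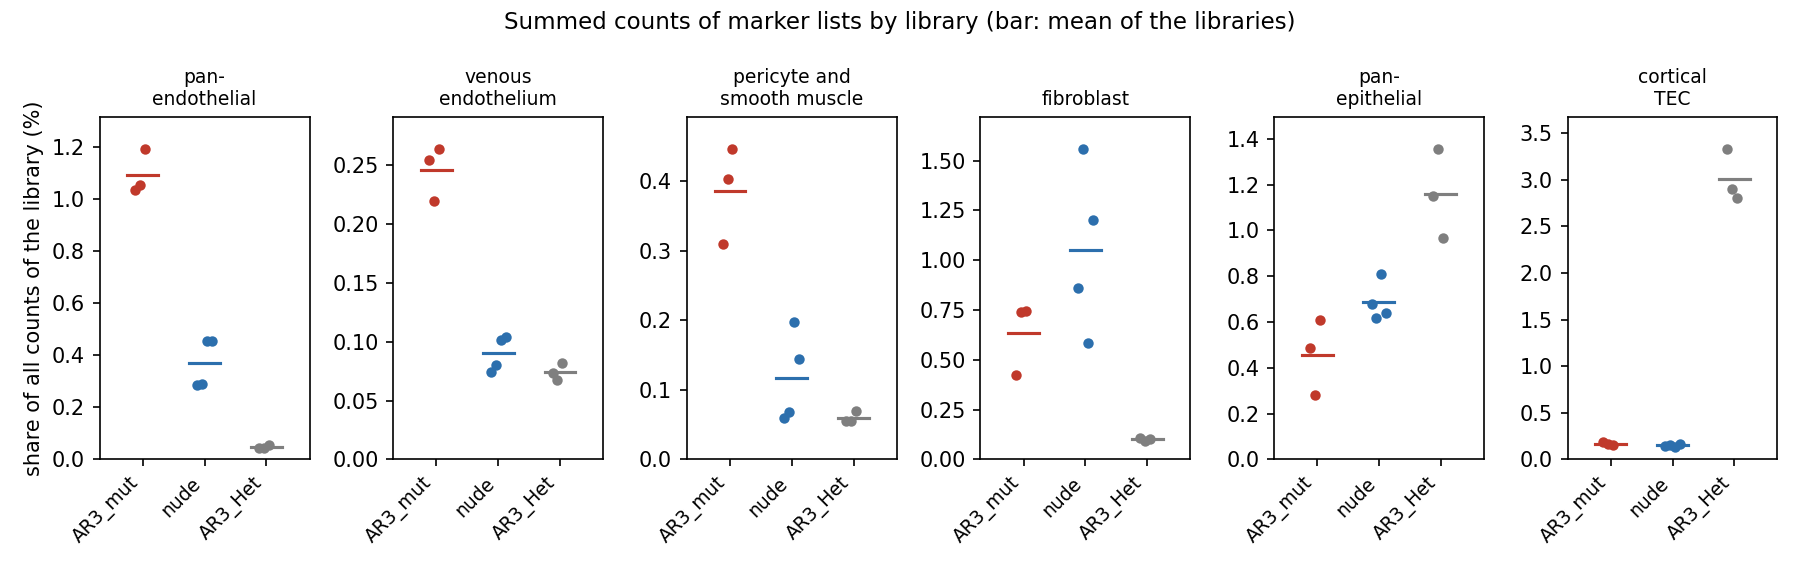
Share of each library's counts, in percent on linear axes that start at 0 and differ between panels, taken by 6 marker lists of endothelium, pericytes, fibroblasts, epithelium and cortical TEC, for AR3_mut (red), nude (blue) and AR3_Het (grey), with a bar at each group's mean. Pan-endothelial genes take 1.03% to 1.19% in AR3_mut, above 0.284% to 0.456% in nude, while pan-epithelial genes take 0.279% to 0.609% and 0.618% to 0.809%.

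Genes of retinoid and xenobiotic metabolism moved both ways, 7 of 22 higher and 3 lower. Cyp1b1, a cytochrome P450 that also oxidises retinol, was at 101, 71.2 and 17.9 CPM in AR3_mut, against 3.25, 2.89, 6.08 and 1.64 CPM in nude (log2 difference 4.26, SE 0.54, adjusted p = 0.00109). Rbp4, the retinol carrier, was at 12.9, 17.4 and 11.9 CPM in AR3_mut, against 141, 253, 74.1 and 238 CPM in nude (log2 difference -3.64, SE 0.43, adjusted p = 0.000770). Aldh1a1, which makes retinoic acid, averaged 63.8 ± 30.5 CPM in AR3_mut and 265 ± 62.9 CPM in nude (log2 difference -2.03, SE 0.34, adjusted p = 0.00400). None of the 3 overlapped, and AR3_Het overlapped AR3_mut for Cyp1b1 and Rbp4. Without nude 1, 4 members were higher and 2 lower.

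Genes of airway, gland and ciliated epithelium, which thymic cysts express, varied widely among the libraries of each group. Ciliary genes were called higher in 4 of 16 by edgeR, and in 0 without AR3_mut 1, by limma-voom or with only the 7 libraries compared, where 8 were tested. Of airway and gland genes 5 of 22 were higher and 1 lower, with 1 higher and 0 lower by limma-voom, and the list took 0.386% to 3.54% of counts in AR3_mut and 0.350% to 11.7% in nude. Scgb3a1, an airway secretoglobin, was at 2275, 355 and 49.8 CPM in AR3_mut, against 9.75, 8.25, 2.77 and 26.2 CPM in nude (log2 difference 6.22, SE 1.20, adjusted p = 0.0123). Without AR3_mut 1 the difference of Scgb3a1 was 4.09 and without nude 4 6.96, and limma-voom did not call it (adjusted p = 0.0757). Obp2a, an odorant-binding lipocalin, was at 1.56, 2.32 and 1.99 CPM in AR3_mut, against 19324, 277, 327 and 106 CPM in nude, and its log2 difference of -11.32 (SE 2.65, adjusted p = 0.0270) was not called when any 1 AR3_mut library was left out (adjusted p between 0.0746 and 0.116). Without nude 1, which held most of its counts, the difference of Obp2a was -6.93 (adjusted p = 0.000579), and neither limma-voom (adjusted p = 0.222) nor DESeq2, which gave it no adjusted p, called it. Both genes belong to families of close relatives whose reads may be shared. Parathyroid and thyroid genes were called in 0 of 8 by edgeR and by DESeq2, with 1 at an unadjusted p under 0.05: Pth, parathyroid hormone, spanned 72.7 to 2261 CPM in AR3_mut and 27.2 to 1935 CPM in nude, and Tg, thyroglobulin, was nearly all in nude 3, at 17698 CPM (adjusted p = 0.960 and 0.0639). Without nude 4, the nude library lowest in Tg, Tg was called lower (adjusted p = 0.0179).

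Thymocyte genes were low in both mutants, at 0.00331% to 0.00375% of counts in AR3_mut, 0.000889% to 0.00185% in nude and 0.140% to 0.255% in AR3_Het. Of 22 tested thymocyte genes 1 was called higher and 0 lower, but 12 of the 22 had 3 counts or fewer in each mutant and only 2 were tested when AR3_Het was not fitted, and Cd3d and Cd8b1 had 0 counts in both, against 1099 and 3157 counts in AR3_Het. The 1 was Cd247, a chain of the T cell receptor complex also made by natural killer cells, at 23.1, 20.8 and 11.9 CPM in AR3_mut, against 1.08, 0, 3.32 and 5.73 CPM in nude (log2 difference 2.94, SE 0.60, adjusted p = 0.0108), and without nude 4 its difference was 3.82. B cell genes were higher in 3 of 5 and myeloid genes in 4 of 15, or in 2 of 4 and 1 of 7 when AR3_Het was not fitted. B cell genes took 0.00881% to 0.117% of counts in AR3_mut and 0.00662% to 0.0135% in AR3_Het. Myeloid genes took 0.0317% to 0.335% in AR3_mut and 0.0599% to 0.113% in AR3_Het. Mzb1, a plasma cell chaperone, was at 132, 32.4 and 8.96 CPM in AR3_mut, against 1.08, 0, 3.32 and 3.68 CPM in nude, and Lyz2, macrophage lysozyme also made by airway epithelium, at 3173, 205 and 49.8 CPM in AR3_mut, against 9.03, 1.24, 7.74 and 52.4 CPM in nude. AR3_mut 1 was the highest library in both, and without it 1 B cell and 2 myeloid members were higher, with adjusted p = 0.0536 for Mzb1 and 0.158 for Lyz2. The log2 difference of Mzb1 was 4.91, and 3.43 without AR3_mut 1, and that of Lyz2 was 6.01, and 2.86 without AR3_mut 1 or 7.57 without nude 4. Lyz2 also lost its call without any 1 AR3_Het library, nude 1, nude 2 or nude 3 (0.0602 to 0.0789).

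Stress and proliferation genes were mostly not called. Of 28 immediate-early genes 1 was higher and 0 lower, and Fos averaged 5193 ± 689 CPM in AR3_mut and 4936 ± 877 CPM in nude (adjusted p = 0.879). Of heat shock genes 2 of 13 were higher and 1 lower, of cell cycle genes 1 of 23 each way and of NF-kB genes 2 of 18 higher. Pouch transcription factors had 1 of 12 higher, Tbx1, a regulator of pharyngeal development, which was not called without AR3_mut 1, AR3_mut 2, AR3_Het 1, nude 1 or nude 2 (adjusted p between 0.0525 and 0.121) and had a log2 difference of 2.16, or 2.94 without nude 4. Adipocyte genes were called higher in 2 of 11, skeletal muscle genes in 1 of 7 and the 1 erythroid gene tested in 0, and Schwann and neural genes were called lower in 1 of 7. With only the 7 AR3_mut and nude libraries fitted, 1 skeletal muscle gene was tested and 0 were higher.

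Several of the largest differences were in families of near-copies, some of which, such as the Ifi200 genes, are known to vary between mouse strains. Of 8 tested strain-variable genes 2 were called higher (Hc and Mx1) and 3 lower (Ifi202b, Glo1 and H2-Ea-ps). With only the 7 AR3_mut and nude libraries fitted, Hc and Mx1 were not tested, and of 5 genes tested 0 were higher and 3 lower. Without AR3_mut 2 Hc was not called (adjusted p = 0.0669), nor H2-Ea-ps without any 1 AR3_mut library (0.0734 to 0.0801), nor Mx1 without any 1 library other than AR3_mut 3 and nude 4 (0.0507 to 0.285). The log2 difference of Mx1 was 3.10, and 2.0 without AR3_mut 1 or 5.34 without nude 4, and that of H2-Ea-ps was -4.15, and -5.08 without AR3_mut 1. Trim12a, a TRIM-family gene, had 160, 96 and 51 counts in AR3_mut, against 0, 0, 0 and 3 counts in nude (log2 ratio 7.51, 95% counting interval 5.95 to 9.80), and AR3_Het had 975 counts. Mndal and Ifi203, neighbours in the interferon-inducible Ifi200 cluster, averaged 66.8 ± 21.4 and 100 ± 16.0 CPM in AR3_mut, against 1.01 ± 1.28 and 2.20 ± 2.36 CPM in nude (log2 differences 5.93 and 5.46, adjusted p = 0.000118 and 7.16e-05). Without nude 4, the highest nude library in both, their differences were 7.15 and 6.58, and without AR3_mut 1 that of Ifi202b was -3.62 and without AR3_mut 2 that of C1s2 was -6.89. Ifi202b of the same cluster went the other way, at 23.5, 7.53 and 13.9 CPM in AR3_mut, against 149, 148, 82.4 and 124 CPM in nude (log2 difference -3.02, SE 0.40, adjusted p = 0.00130), and so did Gbp2b, an interferon-induced GTPase (-5.98, SE 0.51, adjusted p = 0.000118). Rnaset2b, a ribonuclease with a near-identical copy, had a log2 difference of 5.55, and C1rb and C1s2, copies of the complement proteases C1r and C1s, differences of -5.16 and -5.76. AR3_Het overlapped AR3_mut for Ifi202b, Gbp2b and C1s2, lay between the groups for Mndal, Ifi203 and Rnaset2b, above AR3_mut for Trim12a and below it for C1rb. The reads of Trim12a, Rnaset2b, C1rb and C1s2 may be shared with their copies, so their levels are uncertain. Pde6a, a phosphodiesterase of photoreceptors, had 1 count in AR3_mut and 587 in nude (log2 ratio -8.36, 95% counting interval -13.67 to -5.88).

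The AR3_Het libraries divided the called genes. Among the 979 genes higher in AR3_mut, all 3 AR3_Het libraries lay above every AR3_mut library in 167 (17.1%, against 22.6% of all tested genes of that direction), overlapped AR3_mut only in 206 (21.0%, against 14.1%), overlapped nude only in 238 (24.3%, against 13.7%) and lay below every nude library in 290 (29.6%, against 18.2%). Among the 479 lower, AR3_Het lay below every AR3_mut library in 134 (28.0%, against 19.9%), overlapped AR3_mut only in 159 (33.2%, against 12.7%) and lay above every nude library in 40 (8.35%, against 17.7%). AR3_Het overlapped both groups in 26 of the genes higher (2.66%, against 30.6%) and 14 of those lower (2.92%, against 33.8%). Called genes seldom have overlapping AR3_mut and nude libraries, so the call itself nearly empties that class and raises the other shares. An excess over all tested genes is therefore partly built in. These counts are a description with no test. The 167 hold the TEC genes Tbata, Ccl25, Prss16, Cd83, Spib and Ccl19, and the 290 hold endothelial genes such as Plvap, Vwf and Selp. Gng13 was lower in AR3_mut with AR3_Het on the side of nude, and Calcb, a calcitonin-related peptide, and Hpgd, which degrades prostaglandins, were lower with AR3_Het above nude (log2 differences -4.45 and -2.10, with -3.78 for Calcb without nude 1).

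**Figure D5:**
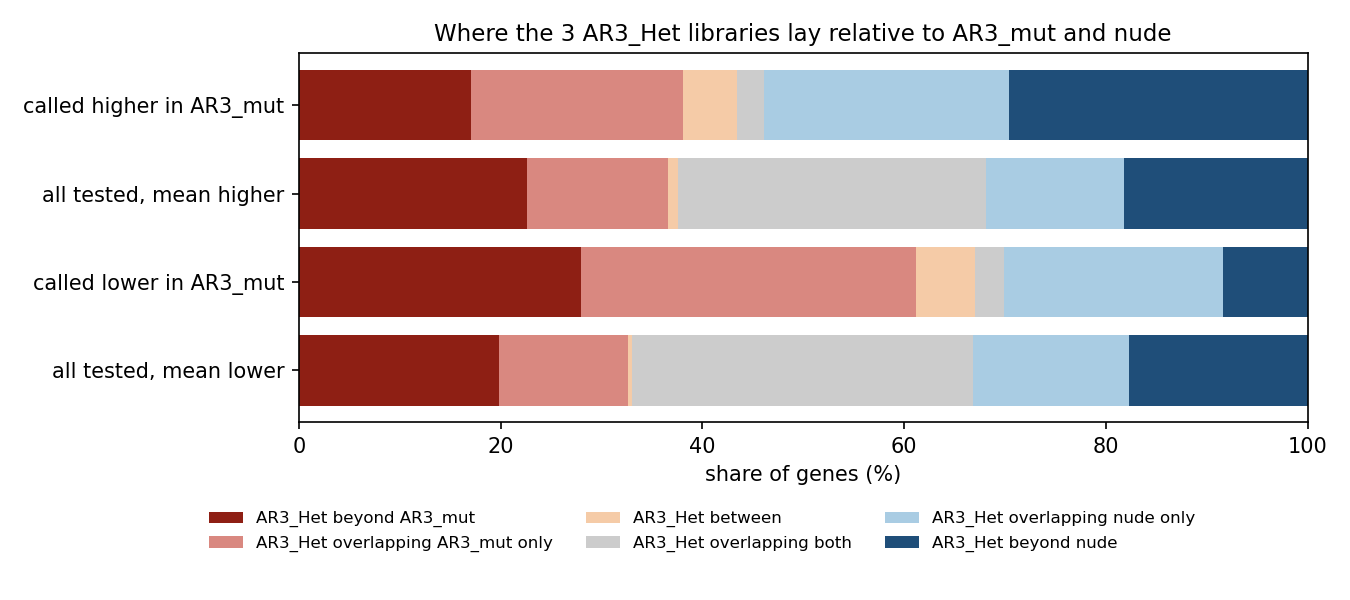
Where the 3 AR3_Het libraries lay relative to the AR3_mut and nude libraries, as a share of genes in percent, for genes called higher or lower in AR3_mut than in nude and for all tested genes of each direction. AR3_Het lay beyond nude in 29.6% of genes called higher and 8.35% of those called lower.

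Both mutants were also set on other scales. Scaled to pan-endothelial counts, 176 of the 979 genes were still called higher, among them 51 of the 167 with AR3_Het above AR3_mut (30.5%). The share was similar or higher where AR3_Het overlapped AR3_mut only (64 of 206, 31.1%) or lay between the groups (19 of 52, 36.5%). It was lower where AR3_Het overlapped nude only (24 of 238, 10.1%) or lay below nude (15 of 290, 5.17%). The 290 include genes of the list that set this scale, such as Plvap, so their low share is partly built in. Because this scale put the median of all genes at -1.52, larger differences were kept more easily. The cells behind the kept genes were not tested. Tbata, Cd83, Spib, Ccl19 and Ly6d were among those kept, of which Cd83, Spib and Ccl19 are also made by dendritic or lymphoid cells and Cd83, Ccl19 and Ly6d were highest in AR3_mut 1. The leukocyte genes Ctss and Cd247 were kept too, as were Stmn1, a microtubule regulator (log2 difference 5.01, adjusted p = 1.58e-05), and Trim12a. Scaled to pan-epithelial counts, 84 of the 479 genes (17.5%) were still called lower.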

How the data were processed

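Cells of thymi dissociated enzymatically were sorted, and TEC RNA, isolated on Dynabeads, went into bulk MARS-seq of transcript 3′ ends, per the labels' protocols. Per the submitters' processing notes, which give no role or order, the tools were STAR 2.4.2a, HTSeq, cutadapt, bcl2fastq and DESeq2, and the build mm10. No source used here says whether molecular identifiers were collapsed. The authors deposited whole-number counts of 15790 genes in 10 libraries, per the file headers, with 20 further per-sample columns that were not used, and log2 fold changes and adjusted p-values of their own comparisons, in which the name Foxn1_ATAC was taken as AR3_mut because the other 2 names match the other groups. The deposited table lists genes with a highest count of at least 6 and 0 mitochondrially encoded genes.

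Counts were fitted with edgeR 4.0.16 (R 4.3.3), with limma 3.58.1 and DESeq2 1.42.0 for alternatives. filterByExpr selected the genes (minimum count 10, minimum total 15), libraries were scaled by TMM, and a robust quasi-likelihood model with group as its only term was fitted to all 10 libraries, so that AR3_Het shares the estimate of spread. AR3_mut was tested against nude, two-sided, with Benjamini-Hochberg adjustment over 12912 genes and a threshold of 0.05. The procedure was tested on simulated data. SE is the absolute log2 difference divided by the square root of the F statistic, and for genes of few counts it can be smaller than counting error. Where a group had 0 counts, folds are bounds, taken against 3 counts summed over that group. Where it had 1 to 3 counts, log2 ratios carry a 95% exact counting interval. Intervals and floors cover counting error only, and 3 counts correspond to 0.718 to 2.84 CPM of library totals.

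The 40 gene lists, the rule for named genes and the comparison itself were chosen with earlier results of these data known. The rule takes Foxn1, the 10 largest called differences in each direction among genes of at least 20 CPM without overlap, up to 5 called and 3 abundant members of each list, and up to 6 genes for each place of AR3_Het beyond AR3_mut or nude. The other genes named were chosen after their values were seen: Aire, Ackr4, Apobec3, Calr, Cd3d, Cd74, Clec4g, Enpep, F8, Fezf2, H2-T23, Heyl, Icam1, Il15, Il7, Ly75, Marco, Mmrn1, Nrarp, Prox1, Prss16, Psmb11, Psmb9, Slco3a1, Stab2 and Tap2. Promoter sequences are from RefSeq (GRCm38.p6). Alternatives were the normalization, the count filter, DESeq2, limma-voom, only the 7 libraries compared, a replicate block, scaling to pan-endothelial or pan-epithelial counts, and each library left out.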

Additional observations from a re-analysis of the deposited data

Results flagged for a closer look

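Among 4 nude libraries a single library can stand apart from the other 3 by more than the critical gap of Dixon's test, which chance passes in about 1 in 20 groups. Groups of 3 were not tested, so AR3_mut could not be examined in this way. Of 114 genes and 40 lists examined in nude, 12 genes and 4 lists had such a library, and 8 of these values belong to nude 4.

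Nude 4 stood apart as the highest nude library in 7 of the genes. It held 359 CPM of Cd74, 111 CPM of H2-Aa, 203 CPM of Psmb8, 83.9 CPM of Tap1, 52.4 CPM of Lyz2, 5.73 CPM of Ifi203 and 1.23 CPM of Trim12a. It was also the lowest nude library in the share of counts on genes reported as Foxn1-dependent, at 0.273%.

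Other nude libraries stood apart in gland, thyroid and epithelial genes. Nude 1 held 19324 CPM of Obp2a and 32.2 CPM of Vcam1, and 11.7% of its counts fell on airway and gland genes. Nude 3 held 17698 CPM of Tg and 29.9 CPM of Jag2, with 1.95% of its counts on parathyroid and thyroid genes and 0.277% on claudins, cadherins and desmosome genes. Nude 2 was the 1 nude library with a count of Ly75, at 0.412 CPM. Trim12a and Ly75 had 0 counts in every other nude library, so the rule flags them at any level. Its chance rate does not apply to these 2 genes.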

How the results depend on the processing

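The 1458 calls fell to 952 (287 lower in AR3_mut) when only the 7 AR3_mut and nude libraries were fitted. DESeq2's Wald test called 752 genes lower. Library totals without TMM moved the median of all genes by 0.07 and put 75.1% of calls on the higher side, against 67.1% with TMM, and AR3_Het lay beyond AR3_mut in 87 of the genes lower. Scaled to pan-epithelial counts, 3296 genes were called, 3207 higher and 89 lower (3074 by 2-fold or more), with a median of all genes of 0.77. Scaled to pan-endothelial counts, 9986 were called, 181 higher and 9805 lower (9558 by 2-fold or more), with a median of -1.52. The total stayed within 1.5 times with DESeq2 size factors (1485), DESeq2's test (1987), limma-voom (1364), no count filter (1435), a minimum count of 30 (1346), and without nude 1 and nude 3 together, an alternative chosen after seeing the data (1286).

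Leaving out single libraries gave 883 (without nude 1) to 1993 (without nude 3) calls, 608 to 1232 higher, 244 to 761 lower and 761 to 1550 by 2-fold or more. AR3_Het then lay beyond AR3_mut in 104 to 211 and beyond nude in 188 to 341 of the genes higher, and beyond AR3_mut in 65 to 285 and beyond nude in 28 to 59 of those lower. With the replicate number as a block 948 genes were called, 263 of them lower. The numbers were not taken to pair the libraries: AR3_mut and nude libraries of the same number had correlations of -0.02, 0.16 and -0.04.

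Scaled to pan-epithelial counts, Bmp4 (0.14), Calr (0.035), Cd34 (0.22) and Krt18 (0.043) turned positive. Scaled to pan-endothelial counts, the log2 difference turned negative for Cd74 (-0.030), Cdkn1c (-0.61), Cxcl12 (-0.20), Dll1 (-0.29), Flt1 (-0.26), Fos (-1.46), Foxn1 (-0.92), H2-T23 (-0.76), Icam1 (-0.96), Igtp (-0.39), Itgb4 (-0.62), Kdr (-1.48), Lama3 (-0.87), Notch1 (-0.55), Pax1 (-1.21), Psmb8 (-0.27), Psmb9 (-0.73), Pth (-1.13), Slco3a1 (-0.30) and Tap2 (-0.36). Among the genes named, Cd34, Krt18, Flt1, Foxn1 and Pth were called neither before nor after. These shifts follow from the scaling itself, and the cause of the other changes was not tested. Depth limits Foxn1, Psmb11, Aire and Fezf2, with 10 or fewer counts over the libraries of each mutant.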

Other observations

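Genes in none of the lists, of which Apobec3 and Ackr4 were chosen after their values were seen, also lay between nude and AR3_Het in AR3_mut. Apobec3, a cytidine deaminase that restricts retroviruses, was at 186, 166 and 161 CPM in AR3_mut, against 33.6, 36.7, 26.0 and 33.2 CPM in nude, and 637, 680.5 and 647 CPM in AR3_Het (adjusted p = 1.58e-05 by edgeR). Ackr4, a scavenging receptor for Ccl19, Ccl21 and Ccl25, was at 92.3, 50.4 and 25.9 CPM in AR3_mut, against 8.31, 13.2, 6.08 and 9.01 CPM in nude, and 243 to 527 CPM in AR3_Het (log2 difference 2.64, SE 0.42, adjusted p = 0.00338). Gp2, a bacterial receptor of mucosal M cells, was at 76.3, 12.2 and 18.9 CPM in AR3_mut, against 4.34, 4.95, 1.66 and 7.37 CPM in nude, and 232 to 326 CPM in AR3_Het (log2 difference 2.98, SE 0.59, adjusted p = 0.00903), with a difference of 1.67 without AR3_mut 1. No AR3_mut library overlapped a nude library in these 3 genes.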
